A study of Mus musculus with 24 samples.

Results

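The transcripts of thymocytes that lack Sap were compared with those of wild-type thymocytes 30 min after the T cell receptor complex was engaged. The comparison was taken from the sample labels, as the 3 arrays of stimulated Sap knockout cells (SapKO) against the 3 arrays of stimulated wild-type cells (WT), which are 6 of the 24 arrays in the study. All cells were double-positive (DP) thymocytes, immature T cells that carry both CD4 and CD8, purified on a cell sorter with antibodies to those 2 proteins from male Black 6J mice aged 8 weeks. After a rest of 2 h the cells spent 30 min either on anti-CD3, a plate-bound antibody against the signalling chains of the receptor, or on uncoated plates (untreated). The study also holds Elk knockout mice (ElkKO) and mice that lack both factors (ElkSapKO), in the same 2 states, with 3 mice of each of the 4 genotypes. How the alleles were made, and whether they delete the gene in all tissues, is not given in the sources used here.

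Sap was read as Elk4, also called SAP-1, and Elk as Elk1. These ETS-family proteins are ternary complex factors: they bind promoters together with the serum response factor Srf, which recognises a sequence called the CArG box, and they become active when ERK kinases phosphorylate them. In thymocytes ERK signalling from the T cell receptor switches on immediate early genes such as those of the Egr family, zinc finger transcription factors needed for positive selection, the step in which DP cells with a useful receptor survive and mature. The study is about the part of these factors in that step.

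Signals were log2 values of Affymetrix Mouse430_2 arrays, 1 array per mouse and state, and the mice were separate animals by the labels. The 6 arrays correlated with each other at 0.983 to 0.996. The spread of relative log expression (interquartile range) was 0.186 to 0.205 in SapKO and 0.228 to 0.363 in WT, and the 3′ minus 5′ signal of Actb was 0.182 to 0.203 in SapKO and 0.151 to 0.359 in WT. The dap spike-in, a bacterial RNA added before labelling, was low (6.41 to 7.22 log2 over the study) in SapKO mice 1 and 3 and WT mice 1 and 2, and high (9.33 to 10.3) in SapKO mouse 2 and WT mouse 3. SapKO and WT were therefore each on both sides of this split, while the 12 arrays of ElkKO and ElkSapKO were all high. Differences within each side are given for Elk4, Ncoa7 and the second Egr3 probe set, and for the called genes in which the sides differed by over 1.5 times. In sorted bulk cells, fewer cells of a type and less RNA per cell cannot be told apart.

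Of 18193 genes tested with limma, 13 differed between stimulated SapKO and WT at an adjusted p under 0.05, which is 0.0715% of the genes; 11 were higher (0.0605%) and 2 lower (0.011%) in SapKO. At an unadjusted p under 0.05 there were 541 genes (2.97%), and the SapKO and WT values did not overlap in 1961 genes (10.8%). The signals of the 13 genes did not overlap between the groups. The count was 8 without SapKO mouse 3 and 27 when the untreated array of ElkSapKO mouse 2, which stands apart from the others, was dropped.

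The targeted gene was looked at first. Elk4 had 7.47, 7.44 and 7.59 log2 in the SapKO mice, against 10.25, 10.67 and 10.82 in the WT mice. Each SapKO array was thus well below each WT array. Elk4 fell 8.46-fold in SapKO (log2 −3.08 ± 0.268, limma SE; adjusted p = 4.72e-07), by −2.93 on the low and −3.39 on the high side of the dap split. Its 3 other probe sets differed by 0.07, −0.67 and −0.73 and were not called, and the part of the gene that each probe set reads, against the deleted part, was not analysed here. Srf, the partner of Elk4, and the other ternary complex factors were not called. Srf averaged 8.36 ± 0.044 log2 in SapKO and 8.62 ± 0.164 in WT (SD, n = 3 each, with a difference of −0.25 ± 0.189, SE). Elk3, the remaining ternary complex factor, averaged 8.32 ± 0.146 and 8.30 ± 0.098, and Elk1 4.83 ± 0.104 and 4.76 ± 0.064. The Elk1 signals lay within the range of Xist, at most 5.07 log2 in these male cells and used here as the level of background. Of 18 measured members of the ternary complex, Srf and Ets family, 1 was called, Elk4 itself, and the ETS repressor Erf had the next smallest p (difference −0.50 ± 0.215, adjusted p = 1.00).

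Besides Elk4, the gene that fell was Ncoa7, a nuclear receptor coactivator with a domain linked to protection from oxidative damage. Stimulated SapKO mice had 7.04, 7.28 and 6.91 log2 and stimulated WT mice 9.55, 9.63 and 9.59. The WT values lay close together, and none was near a SapKO value. The gene was 5.72-fold lower in SapKO (log2 −2.52 ± 0.185, adjusted p = 2.65e-08; −2.62 and −2.31 on the low and high dap sides). Without anti-CD3 the signals were 7.15, 7.12 and 7.12 in SapKO and 8.29, 8.13 and 8.51 in WT, so that part of the difference was already there in untreated cells (log2 −1.18, adjusted p = 0.00567). Anti-CD3 raised Ncoa7 by log2 1.28 ± 0.185 in WT cells (adjusted p = 5.18e-04), while the response in SapKO cells was −0.06 ± 0.185 and was not called. The response difference was −1.34 ± 0.262, which had the smallest p of all genes in that test but did not pass over all genes (adjusted p = 0.81). A dimmer second probe set, at 4.94 in SapKO and 4.81 in WT, differed by 0.12. Both means lay in the background range, where a fall could hardly be seen. The call was lost when this probe set was averaged with the brighter one (−1.20, adjusted p = 0.381).

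The 2 largest rises were in Ctse and Nmnat1. Cathepsin E (Ctse), an aspartic protease of intracellular compartments, had 11.84, 11.73 and 11.83 log2 in SapKO, against 7.07, 7.23 and 7.85 in WT. It was 21.4-fold higher in SapKO (log2 4.42 ± 0.195, adjusted p = 1.96e-12). Its second probe set ran the other way, with 8.16 in SapKO and 9.53 in WT (−1.36 ± 0.529, adjusted p = 1.00 among all probe sets), so the 2 measures of this gene disagree. With both averaged the difference was 1.53 (adjusted p = 0.06). Nmnat1, which makes NAD in the nucleus, had 10.71, 10.33 and 10.42 log2 in SapKO, against 6.60, 6.76 and 6.30 in WT. It was 15.2-fold higher (3.93 ± 0.161, adjusted p = 8.52e-13), and its second probe set gave 4.24 ± 0.235.

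**Figure D1:**
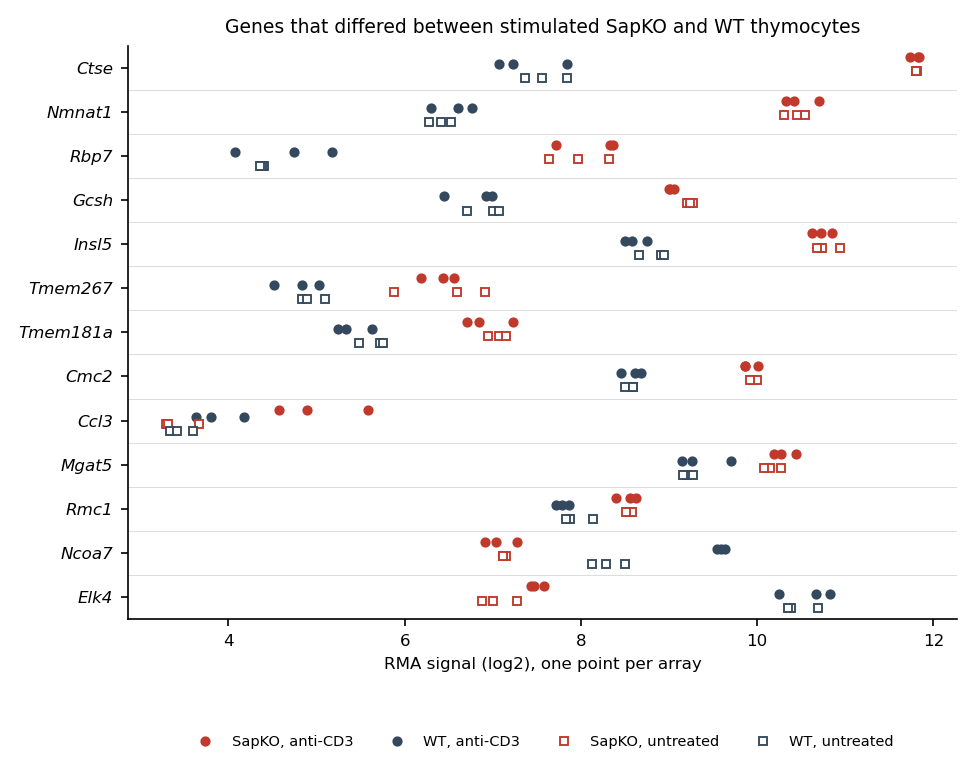
Log2 signal of the 13 genes that differed between stimulated SapKO (filled red) and stimulated WT cells (filled dark), with the untreated arrays of the same mice as open squares, 1 point per array. The filled points of each gene do not overlap between genotypes; for Ccl3 the open squares of SapKO and WT do, and for Ncoa7 the WT arrays alone lie further right when stimulated.

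The next rises were in Rbp7, Gcsh and Insl5. Rbp7, a small retinoid-binding protein, had 8.36, 7.72 and 8.33 log2 in SapKO, against 5.17, 4.75 and 4.07 in WT, and was at least 8.39-fold higher (log2 3.47 ± 0.244, adjusted p = 1.42e-08); such folds are lower bounds, since the WT mean was no higher than the highest Xist signal. Gcsh, the carrier protein of the mitochondrial glycine cleavage system, had 9.05, 9.01 and 9.003 log2 in SapKO, against 6.45, 6.93 and 6.99 in WT (4.70-fold, adjusted p = 8.87e-04). Insl5, an insulin-like peptide hormone of the relaxin family, had 10.72, 10.62 and 10.85 log2 in SapKO, against 8.50, 8.75 and 8.58 in WT (4.34-fold, adjusted p = 2.31e-06). In each of these 3 genes the gap between the genotypes was wider than the spread among the mice of either.

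Smaller rises were found in 6 genes. The membrane protein gene Tmem181a was 2.87-fold higher in SapKO (6.84, 6.71 and 7.23 log2 against 5.24, 5.34 and 5.63 in WT; adjusted p = 5.37e-04), and Tmem267 at least 2.50-fold higher (6.56, 6.18 and 6.44 against 4.52, 5.03 and 4.83 in WT; adjusted p = 0.0130). Cmc2, a mitochondrial protein tied to cytochrome c oxidase assembly, was 2.51-fold higher (9.87, 10.01 and 9.87 against 8.61, 8.46 and 8.68 in WT, adjusted p = 0.0170). Of its 3 other probe sets 2 were called among all probe sets, at 1.16 and 1.53, and the third was not called. Under the alternative settings the Cmc2 difference was 0.98 to 1.38. Mgat5, a Golgi enzyme that branches the sugar chains of surface glycoproteins such as the T cell receptor, was 1.91-fold higher. It had 10.27, 10.20 and 10.44 in SapKO, against 9.15, 9.26 and 9.70 in WT (adjusted p = 0.00809). A dimmer second Mgat5 probe set, with means of 6.20 in SapKO and 4.64 in WT, was also called among all probe sets (1.55 ± 0.205, limma adjusted p = 7.90e-04). Rmc1, a component of a complex of late endosomes, was 1.67-fold higher (8.63, 8.55 and 8.40 against 7.72, 7.86 and 7.79 in WT; adjusted p = 0.0361). On the low and high dap sides the difference was 1.15 and 0.49 for Mgat5 and 1.75 and 1.08 for Tmem181a. Tmem181a stayed called without any 1 of the 6 arrays, but leaving out any 1 of them ended the calls of Cmc2 (adjusted p 0.0652 to 0.139) and Rmc1 (0.0837 to 0.310). That of Tmem267 was lost without WT mouse 1 or 3 or SapKO mouse 1 or 3 (0.0652 to 0.126), and that of Mgat5 without WT mouse 1 or 2 or SapKO mouse 3 (0.0804 to 0.0987). With only the 6 arrays in the fit Mgat5 (adjusted p = 0.127) and Rmc1 (0.0764) were not called.

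Ccl3, the remaining rise, encodes a chemokine that attracts monocytes and T cells. Stimulated SapKO cells had 4.57, 5.59 and 4.90 log2, and stimulated WT cells 3.80, 4.18 and 3.63, so the groups did not overlap, although most values lay in the background range and no fold is given. The difference was 1.15 ± 0.201 (adjusted p = 0.0170), at 0.74 on the low and 1.96 on the high dap side. Untreated cells had 3.29, 3.66 and 3.32 in SapKO and 3.33, 3.42 and 3.60 in WT. Among the 13 genes it was the one with no difference of the same sign without anti-CD3 (log2 −0.03); its response difference of 1.17 ± 0.285 did not pass over all genes (adjusted p = 1.00). The call was lost without WT mouse 1 or 3 or SapKO mouse 2 or 3 (adjusted p 0.0734 to 0.190), and with only the 6 arrays in the fit (0.408). The related chemokine Ccl4 differed by 0.34 ± 0.189 and was not called.

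The genotype difference was thus set beside that of untreated cells, to ask which differences needed anti-CD3. Untreated SapKO and WT differed in 15 genes (0.0824%), among them 11 of the 13. The exceptions were Ccl3 and Rmc1 (0.60 untreated, adjusted p = 0.252). Called in untreated cells alone were Slc41a1 (1.10, limma adjusted p = 0.0293), Nnt (−0.94, 0.0293), Usb1 (−0.76, 0.0384) and Usp18 (1.37, 0.0293). After anti-CD3 these differed in the same direction, by 1.02, −0.89, −0.74 and 1.26, with adjusted p of 0.0540 to 0.0633. That count of 15 was 8 without the untreated array of WT mouse 2, of WT mouse 3 or of SapKO mouse 3, and 9 without that of SapKO mouse 1. For the large rises the values were alike with and without anti-CD3: 4.42 and 4.22 for Ctse, 3.93 and 4.03 for Nmnat1, 3.47 and 3.59 for Rbp7, 2.23 and 2.31 for Gcsh and 2.12 and 1.95 for Insl5. The response difference, SapKO response minus WT response, was called for 0 of 18193 genes with limma (0%), with 143 at an unadjusted p under 0.05 (0.786%). With each mouse as a block, which uses that both arrays came from 1 animal, the count was also 0.

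**Figure D2:**
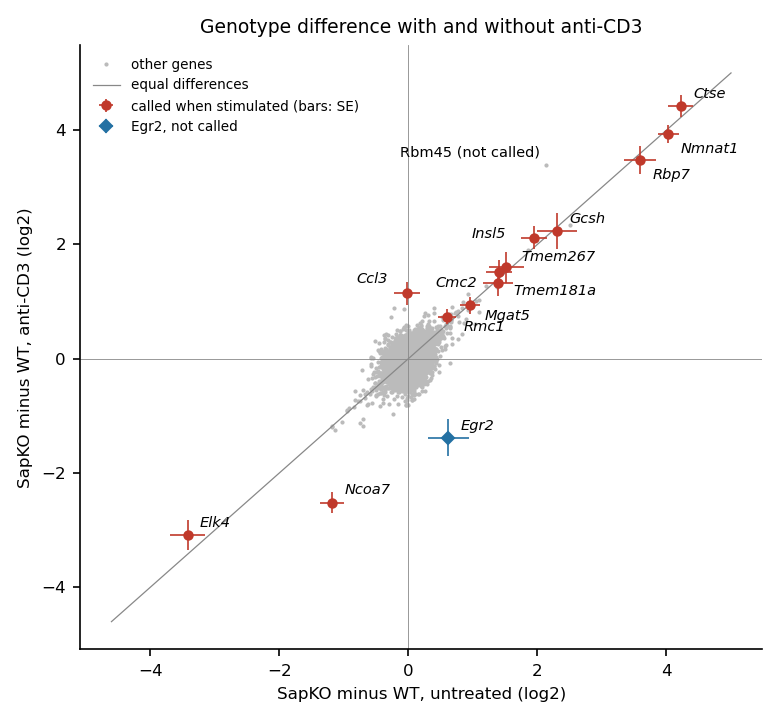
SapKO minus WT difference after anti-CD3 (vertical axis, log2) against that in untreated cells (horizontal axis, log2), with limma standard errors for the named genes; grey dots are the other genes and the line marks equal differences. Most called genes lie on the line; Ncoa7 (−2.52 and −1.18), Egr2 (−1.38 and 0.62, not called) and Ccl3 (1.15 and −0.03) lie off it.

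Genes known as targets of ternary complex factors and Srf were described from a list of 28 immediate early genes, all measured. Of these, 6 averaged at or under the background level in the stimulated SapKO and WT arrays, where a fall could hardly be seen. None of the 28 was called. At an unadjusted p under 0.05, 6 were lower and 0 higher (1.65% and 1.32% of all genes). The groups were separate and lower in SapKO for 9 of the 28 (6.3% of all genes). The difference was below 0 for 22 of 28, against 57.8% of all genes, and its median was −0.18, against −0.03 over all genes. Of the 12 genes of the Egr, Nab and Id axis 0 were called and 5 were lower at an unadjusted p under 0.05. The 14 AP-1 genes, whose products dimerise into Fos and Jun complexes, had 0 called and 2 lower at that level. The lists share members, so these counts are not separate results. Egr1, Egr2, Egr3 and Egr4 are on both the immediate early and the Egr lists. Fosb and Junb are on both the immediate early and the AP-1 lists.

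Egr2 had the largest difference of these genes when each was read by its brightest probe set; with probe sets averaged Egr3 differed more (−1.52, against −1.42 for Egr2). Stimulated SapKO cells had 10.27, 10.48 and 10.23 log2 and stimulated WT cells 11.59, 11.79 and 11.75, with no overlap. The difference was −1.38 ± 0.322 and was not called in the fit of all 24 arrays (adjusted p = 0.206). It passed with only the 6 arrays in the fit (adjusted p = 0.00178), with probe sets averaged (0.00957), with weighted arrays (0.0232) and when ElkSapKO mouse 2 lost its untreated array, which stands apart from the others (0.0428). It did not pass when any 1 of the 6 arrays was left out (0.441 to 0.797). In untreated cells the signals were 4.59, 5.59 and 5.04 in SapKO and 5.01, 4.04 and 4.31 in WT and overlapped, and the response difference was −2.003 ± 0.455 (adjusted p = 1.00). Anti-CD3 raised Egr2 in both genotypes, by 5.25 ± 0.322 in SapKO and 7.26 ± 0.322 in WT. Most of the untreated Egr2 signals lay in the background range, which limits the sizes of these responses and of their difference. A second Egr2 probe set had 8.74, 8.94 and 9.28 in SapKO, against 10.38, 10.46 and 10.48 in WT, and passed when all 45037 probe sets were tested (−1.45 ± 0.25, adjusted p = 0.0175; 34 called, 0.0755%); that call was lost when any 1 of 5 arrays was left out (adjusted p 0.0788 to 0.209) and kept without SapKO mouse 3 (0.0323).

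Egr3, which acts with Egr2 in thymocytes, was represented by its brighter probe set over the 24 arrays, with 6.27, 6.04 and 6.18 log2 in SapKO and 6.65, 7.37 and 6.66 in WT (−0.73 ± 0.198, adjusted p = 0.571). Its second probe set responded more to anti-CD3. It had 7.87, 8.33 and 8.14 in stimulated SapKO cells and 10.17, 10.71 and 10.41 in stimulated WT cells. In untreated cells it had 2.96 to 3.73 in SapKO and 2.92 to 3.33 in WT, which is in the background range. The stimulated difference of −2.31 ± 0.253 was called among all probe sets (adjusted p = 4.96e-05; −2.43 and −2.08 on the low and high dap sides), and so was its response difference of −2.55 ± 0.358 (adjusted p = 0.0268). At the gene level Egr3 was called with probe sets averaged (adjusted p = 1.22e-05) and with weighted arrays (0.00357).

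**Figure D3:**
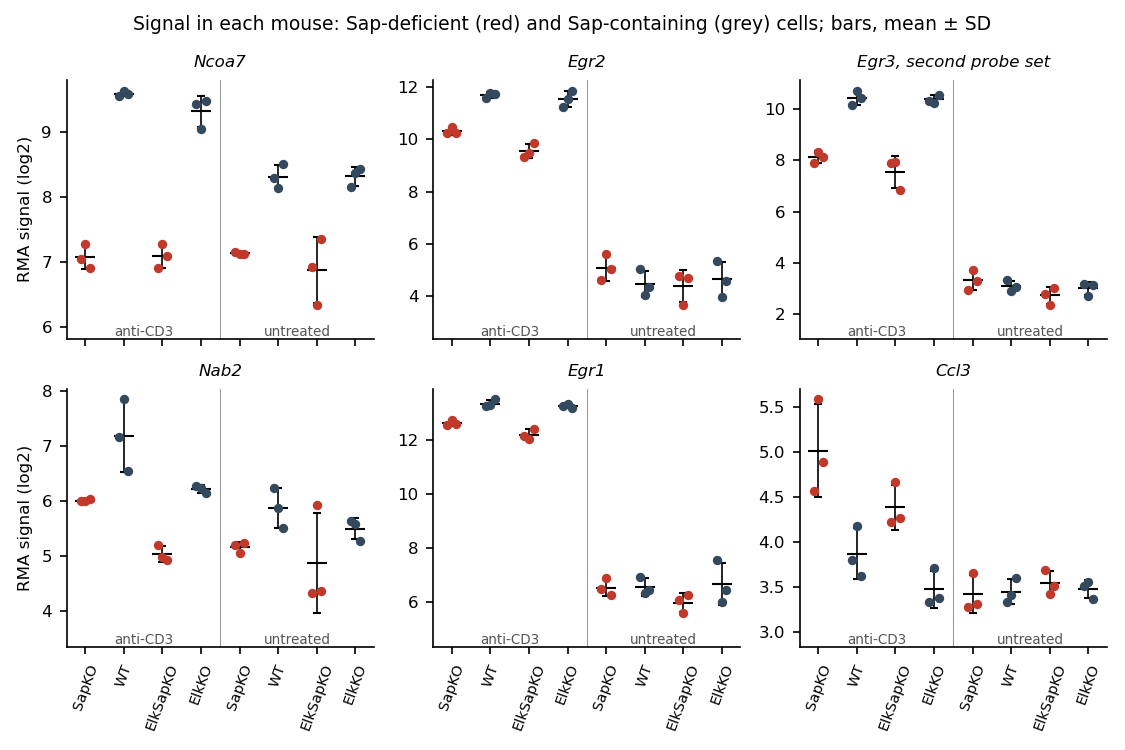
Log2 signal of 6 genes in each mouse of the 8 groups, with stimulated arrays left and untreated arrays right of the line; genotypes without Sap are red and those with Sap grey, and bars are the mean ± SD of 3 mice. Stimulated Egr2, Egr1 and the second Egr3 probe set are lower in both genotypes without Sap than in their counterparts with Sap, and Ncoa7 is lower in both states.

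The other early genes differed by less. Egr1 had 12.55, 12.74 and 12.60 log2 in SapKO, against 13.26, 13.29 and 13.52 in WT (−0.73 ± 0.266, adjusted p = 1.00). Nab2, a corepressor that binds Egr proteins, had 5.99, 6.00 and 6.03 in SapKO, against 7.15, 7.84 and 6.54 in WT. It differed by −1.17 ± 0.313 (adjusted p = 0.529, but 0.00102 with weighted arrays and 0.0175 when the untreated array that stands apart was dropped). With each mouse as a block the response difference of Nab2 was −0.46 ± 0.391. Part of its stimulated difference was thus already there in untreated cells. Fosb and Junb, subunits of AP-1, differed by −0.97 ± 0.347 and −0.65 ± 0.257, Fos by −0.70 ± 0.555 and Egr4 by −0.59 ± 0.216, each without overlap and each with an adjusted p of 1.00. Others had values nearer to those of WT. Cd69, an early activation marker, differed by −0.08 ± 0.544, and Nr4a1, an orphan receptor induced by receptor signals, by −0.21 ± 0.446. Ier2 differed by −0.23 ± 0.242. Zfp36, which destabilises cytokine messages, differed by −0.17 ± 0.174, a small difference but without overlap.

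To look at the response with genes not chosen on these 6 arrays, induced genes were taken from ElkKO mice, whose arrays are not in the comparison: 29 genes were raised at least 2-fold by anti-CD3 there (0.159% of 18193). In stimulated SapKO minus WT 17 of the 29 were below 0 and 12 above, near the share of all genes below 0 (57.8%), and the median was −0.12, against −0.03 over all genes. Of the 29, 1 was called, Ncoa7 (0.0715% of all genes). At an unadjusted p under 0.05 there were 5 lower (1.65% of all genes), Ncoa7, Egr2, Egr1, Fosb and Junb, and 1 higher (1.32% of all genes), Ccr4, a chemokine receptor of maturing thymocytes (7.60, 7.01 and 7.28 log2 in SapKO, against 6.75, 7.04 and 5.89 in WT; 0.73 ± 0.285, adjusted p = 1.00). The response was positive in SapKO for 28 of the 29, Ncoa7 being the exception, and smaller than the WT response for 21. The share of all genes with a smaller response is not given here, and the median response difference over all genes was −0.01. Genes whose values were nearest to WT included Itprip (0.03), Nfkbiz (0.07), an NF-kB regulator whose sign changed with some settings, and the kinase gene Plk3 (0.09).

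**Figure D4:**
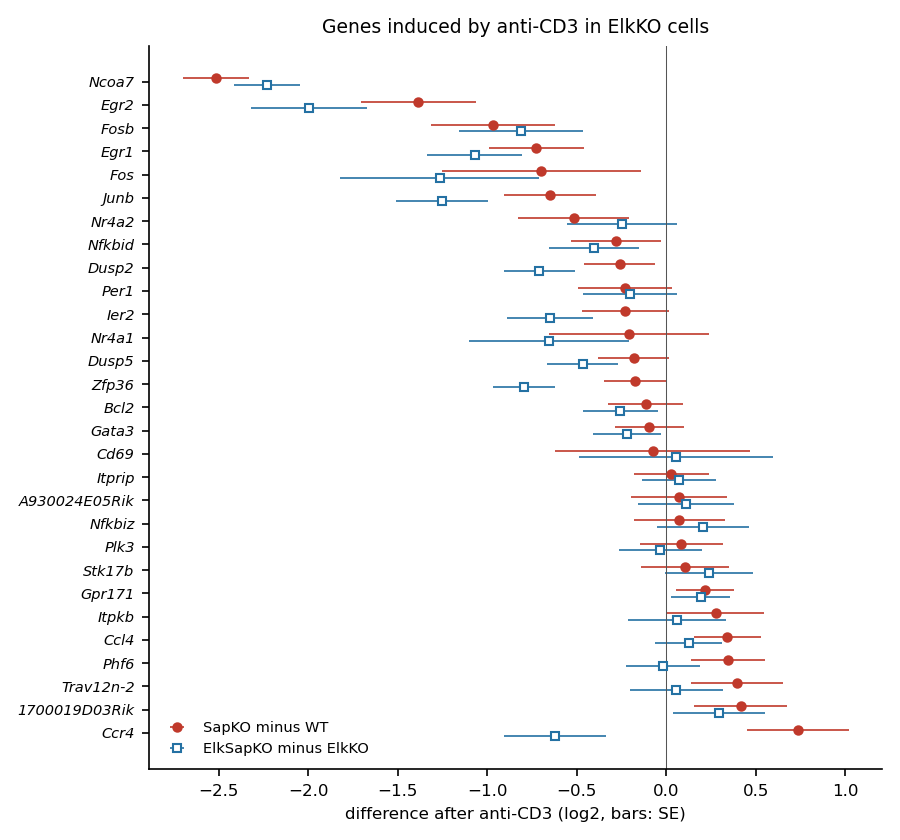
Difference after anti-CD3 (log2, bars are limma standard errors) of the 29 genes induced in ElkKO cells, as SapKO minus WT (red circles) and ElkSapKO minus ElkKO (open blue squares). The genes were chosen as high in stimulated ElkKO cells, which lowers the blue values. Ncoa7 is at −2.52 and −2.23, Egr2 at −1.38 and −1.99, and Ccr4 is on opposite sides of 0 (0.73 and −0.62).

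Loss of Sap could also be followed in 6 arrays that the comparison does not use, stimulated ElkSapKO against stimulated ElkKO, in which both groups lack Elk. There 8 genes were called (0.044%): Ctse, Nmnat1, Insl5 and Mgat5 were higher in ElkSapKO, and Elk4, Ncoa7, Egr2 and the ubiquitin ligase gene Mid1 were lower. Of the 13 genes, 6 were called in both in the same direction and 12 had the same sign, with the targeted gene Elk4 among them. Of those with the same sign but no call in ElkSapKO minus ElkKO, Rbp7, Ccl3, Tmem181a and Tmem267 were at 0.77 to 1.01 there. Rmc1 was at 0.16 and Cmc2 at 0.09, and other called probe sets of Cmc2 were at −0.24 and −0.006. The second called probe set of Mgat5 was at 0.32. Over all genes 50.5% were above 0 in ElkSapKO minus ElkKO, and the share with the same sign in both comparisons is not given here. Ncoa7 had 6.90, 7.27 and 7.09 log2 in ElkSapKO, against 9.44, 9.04 and 9.47 in ElkKO (−2.23 ± 0.185, adjusted p = 3.45e-07). Egr2, not called in SapKO against WT, had 9.32, 9.49 and 9.87 in ElkSapKO, against 11.24, 11.54 and 11.88 in ElkKO (−1.99 ± 0.322, adjusted p = 0.0107); the call was lost without ElkKO mouse 2 (0.0664) or ElkSapKO mouse 1 (0.106) or 2 (0.101). The second Egr3 probe set had 7.87, 7.92 and 6.84 in ElkSapKO, against 10.32, 10.23 and 10.56 in ElkKO (−2.83 ± 0.253, adjusted p = 3.00e-06 among all probe sets). Of the 28 immediate early genes 25 were below 0 in ElkSapKO minus ElkKO (49.5% of all genes), with a median of −0.39 against 0.00 over all genes. The count called here was 28 without ElkKO mouse 3, 5 without ElkSapKO mouse 2 and 127 without ElkSapKO mouse 3; Ctse, Nmnat1, Elk4, Ncoa7 and Insl5 stayed called without any 1 array, Mid1 in 3 of 6 cases and Mgat5 in 2.

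The size of the Sap difference itself was compared between the 2 backgrounds. It was called as unequal for 3 genes (0.0165%), each larger in SapKO against WT: Nmnat1 (3.93 against WT and 2.53 in ElkSapKO against ElkKO), Rbp7 (3.47 and 1.01) and Gcsh (2.23 and −0.62). Gcsh was the gene of opposite sign, with 8.44, 8.94 and 7.31 log2 in ElkSapKO, against 8.95, 8.91 and 8.69 in ElkKO; the lowest values of this gene were those of WT, at 6.45 to 6.99. For Egr2 the 2 differences were apart by 0.61 and for Ncoa7 by −0.29, and neither was called as unequal.

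The positions of the called genes were described by gene order. Elk4 lies on chromosome 1, which holds 1066 of the 18145 tested genes with a known chromosome (5.87%) and 3 of the 13 called (23.1%). Among 87 tested genes within 50 protein-coding genes of Elk4 on either side, Elk4 included, 3 were called (3.45%, against 0.0715% of all genes): Elk4, Ctse 8 genes away and Mgat5 44 genes away. Genes in the same stretch that were not called after anti-CD3 include Slc41a1, a magnesium transporter 4 genes from Elk4. Slc41a1 had 8.72, 8.44 and 8.37 log2 in SapKO, against 7.39, 7.70 and 7.37 in WT (1.02 ± 0.203, adjusted p = 0.0594). In untreated cells it was called (1.10, limma adjusted p = 0.0293), and in ElkSapKO against ElkKO it differed by 1.07 (adjusted p = 0.0558). Also not called were Rab7b, a GTPase of late endosomes 7 genes away (0.80 ± 0.194, adjusted p = 0.286), and Ube2t, a DNA repair enzyme 47 genes away (−1.11 ± 0.229, adjusted p = 0.0707). Other called genes also lay together: Rbp7 and Nmnat1 are neighbours on chromosome 4, and Cmc2 and Gcsh are 4 genes apart on chromosome 8. Ncoa7 is on chromosome 10. The part of chromosomal position in these differences was not tested.

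**Figure D5:**
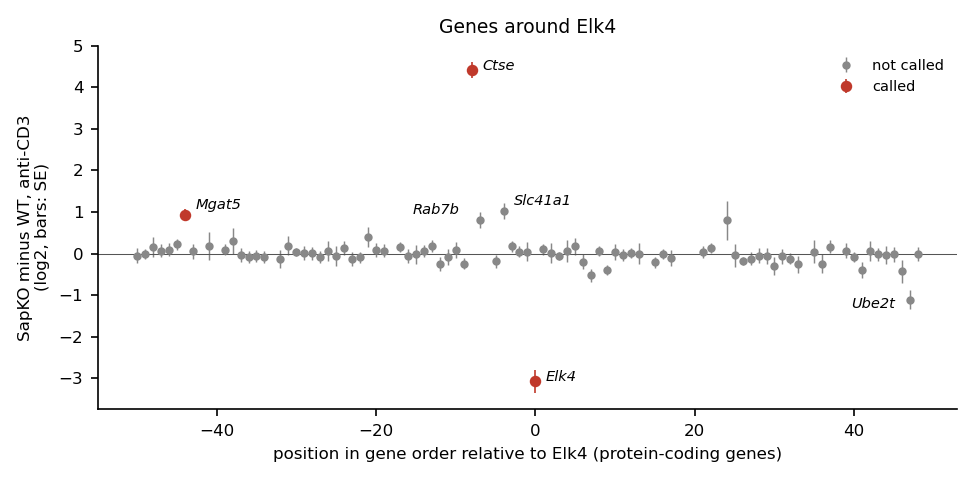
SapKO minus WT difference after anti-CD3 (log2, bars are limma standard errors) for the tested genes within 50 protein-coding genes of Elk4, in gene order. Elk4 (−3.08), Ctse (4.42) and Mgat5 (0.93) were called (red), and most other genes lie near 0.

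Promoter sequence was read for called and early genes, from RefSeq windows of 300 bases around annotated starts of build GRCm38.p6. Searched on both strands were the CArG box, which binds Srf, and the ETS core GGAA, the contact of ternary complex factors. A CArG box was present in 1.629% of 32851 windows and the ETS core in 95.98%. Of 18 windows of 11 called genes 1 held a CArG box (5.556%), a window of Ncoa7, and each held an ETS core (100%). Of 27 windows of the immediate early genes 6 held a CArG box (22.222%), and of 35 windows of the induced genes 7 (20.0%). By gene these were 3 of 21 and 4 of 21, against 488 of 27025 over all promoters. Windows of a gene can overlap and hold the same box, and a match describes letters and not binding. The windows of Fos, Fosb, Junb, Egr4 and Nab2 held no CArG box. A box outside the 300 bases would not be seen. Not read were Ctse, Rmc1, Egr1, Egr3 and some other genes of the immediate early and induced sets. Shown are both Ncoa7 windows, of which the second has the box, a window of Egr2 and that of Srf, a known target of its own product; capitals mark CArG boxes and ETS cores, a core on the other strand reading TTCC.
Ncoa7, window 1 (chr10:30803277-30803576, minus strand): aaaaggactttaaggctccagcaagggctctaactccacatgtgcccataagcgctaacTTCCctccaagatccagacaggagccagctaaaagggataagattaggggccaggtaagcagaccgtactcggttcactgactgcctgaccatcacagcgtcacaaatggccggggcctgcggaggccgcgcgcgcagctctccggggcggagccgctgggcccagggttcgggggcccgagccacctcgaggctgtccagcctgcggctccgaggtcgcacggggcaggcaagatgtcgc
Ncoa7, window 2 (chr10:30655818-30656117, minus strand): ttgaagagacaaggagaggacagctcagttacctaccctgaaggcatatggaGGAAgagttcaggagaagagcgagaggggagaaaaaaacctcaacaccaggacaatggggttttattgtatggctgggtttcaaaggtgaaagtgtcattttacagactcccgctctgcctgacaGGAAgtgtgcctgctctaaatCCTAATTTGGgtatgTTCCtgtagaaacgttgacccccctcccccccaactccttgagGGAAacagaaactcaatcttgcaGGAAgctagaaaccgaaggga
Egr2, window 3 (chr10:67537619-67537918, plus strand): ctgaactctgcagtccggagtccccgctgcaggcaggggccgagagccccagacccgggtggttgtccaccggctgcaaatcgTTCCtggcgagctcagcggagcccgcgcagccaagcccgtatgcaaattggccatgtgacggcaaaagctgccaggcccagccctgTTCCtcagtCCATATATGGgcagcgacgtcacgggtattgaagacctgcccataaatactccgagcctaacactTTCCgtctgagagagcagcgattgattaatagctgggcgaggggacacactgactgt
Srf, window 1 (chr17:46556113-46556412, minus strand): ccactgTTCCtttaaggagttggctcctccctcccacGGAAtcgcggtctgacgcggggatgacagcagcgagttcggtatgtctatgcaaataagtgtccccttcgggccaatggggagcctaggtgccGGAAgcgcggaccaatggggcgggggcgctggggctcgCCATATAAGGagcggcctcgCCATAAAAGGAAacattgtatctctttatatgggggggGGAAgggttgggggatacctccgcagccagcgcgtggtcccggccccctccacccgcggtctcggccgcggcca
In the second Ncoa7 window the box begins 52 bases before the start and the nearest ETS core is 5 bases from it. The Egr2 window has its box 72 bases before the start, with an ETS core at the same distance of 5 bases. The Srf window has 2 boxes. Which start DP cells use is not known here, and Srf itself, with 2 boxes, was not called.

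Markers were used to check the cells. The 20 measured DP genes had 0 called and a median difference of 0.10; the defining Cd8a averaged 12.95 ± 0.035 log2 in SapKO and 12.71 ± 0.208 in WT (SD, n = 3 each), and Rag1, which cuts receptor genes for rearrangement, 12.52 and 12.41. B cell markers lay higher in SapKO: of 11 measured 0 were called, 2 were higher at an unadjusted p under 0.05 (1.32% of all genes), 5 were higher without overlap (4.47%), and the median difference was 0.35. Their summed linear signal was 4888 to 6173 in SapKO and 3712 to 5099 in WT, most of it from Ighm (means of 12.26 log2 in SapKO and 11.90 in WT). The B cell surface gene Ms4a1 had 4.13, 5.37 and 4.34 log2 in SapKO, against 3.47, 3.74 and 3.58 in WT, in or near the background range. The other defining B cell gene, Cd79a, averaged 5.56 in SapKO and 4.95 in WT, while the B lineage factors Pax5 and Ebf1 differed by −0.22 and −0.09. The part of B cell RNA in the called genes was not tested. Erythroid markers (5 of 5), granulocyte markers (10 of 10) and those of macrophages or dendritic cells (17 of 20) were at background, none was called, and their medians were −0.15, −0.04 and −0.05. The 3 measured sex-linked genes were not called either (median 0.05).

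The remaining lists held no called gene. Positive selection and maturation genes (27 measured) had 3 higher and 3 lower at an unadjusted p under 0.05 and a median of 0.07. The 3 lower were Egr1, Egr2 and Nab2, already counted in the lists above. The adhesion receptor Cd2 had 8.83, 8.84 and 8.62 log2 in SapKO, against 8.27, 8.40 and 7.99 in WT (0.54 ± 0.141, adjusted p = 0.465). T cell receptor signalling components (23 measured) ranged from −0.15 to 0.14 with 0 at an unadjusted p under 0.05 and a median of −0.02. Medians were −0.05 for ERK feedback regulators (18 measured), −0.10 for Nr4a and negative selection genes (14), −0.03 for NF-kB targets (18), −0.05 for cytoskeletal Srf targets (22), −0.03 for cell cycle genes (28), 0.01 for heat shock genes (19) and −0.02 for p53 and apoptosis genes (16). Mature and innate T cell markers (17), double-negative thymocyte markers (13) and epithelial and stromal markers (20) had medians of −0.03, 0.06 and −0.05. Interferon response genes (18 measured, median 0.15) held the protease gene Usp18, with 6.02, 5.92 and 5.87 log2 in SapKO against 5.13, 4.25 and 4.66 in WT (1.26 ± 0.253, adjusted p = 0.0633), and the GTPase gene Ifi47, with 8.02, 8.37 and 8.25 against 9.01, 9.01 and 9.19 (−0.85 ± 0.306, adjusted p = 1.00).

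Genes just outside the threshold after anti-CD3 were given as values only. Among those below, Usb1 and Nnt were called in untreated cells. The falls of smallest p after Ncoa7 and Elk4 were in Usb1, which trims U6 RNA (−0.74 ± 0.144, adjusted p = 0.0540), Nnt, the mitochondrial transhydrogenase that makes NADPH (8.45, 8.33 and 8.40 log2 in SapKO, against 9.28, 9.36 and 9.22 in WT; −0.89 ± 0.175, adjusted p = 0.0573), and the transcription factor Nfia (−0.81 ± 0.161, adjusted p = 0.0597). Rbm45, an RNA-binding protein gene chosen after its values were seen, had 10.02, 9.71 and 9.92 log2 in SapKO, against 6.37, 6.67 and 6.45 in WT, a difference of 3.39 that was not called (SE 0.688, adjusted p = 0.0660).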

How the data were processed

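The values analysed were the log2 signals deposited by the authors for 45101 Mouse430_2 probe sets on 24 arrays, made by RMA with the affy package per the submitters' processing notes. Since RMA forces the arrays to a common distribution, a shift of most genes between groups cannot be seen. No software version or genome build was given in the sources used here. The table had 0 missing values. The 64 control probe sets were left out. Each gene was represented by the brightest probe set with a single symbol (34945 had 1 symbol, 932 several and 9160 none), which gave 18193 genes, of which 18032 matched an Entrez identifier in a GRCm38.p6 gene table. Coordinates are printed only for the RefSeq promoter windows.

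The tests were made in R 4.3.3 with limma 3.58.1, from a model with a mean for each of 8 groups of 3 arrays (16 residual degrees of freedom), two-sided and adjusted by Benjamini-Hochberg over all genes. Errors are limma standard errors unless SD is stated. Genes with an adjusted p under 0.05 are those called, or that rose or fell. In data simulated on this design, 100 genes were changed by 1 log2 unit and 100 by 2. For this comparison 80% and 100% of them were recovered, among 186 calls of which 6 were false. The real comparison had 13 calls, so the adjustment allowed larger unadjusted p values in the simulation than in the real data. The recovered shares therefore do not carry over, and an uncalled gene is not shown to lack a change of these sizes. The number of arrays limits the precision, and an exact permutation test of 3 against 3 could not go below 0.1. Figures were drawn with matplotlib 3.10.9.

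The comparison, the 23 gene lists and the rule for named genes were chosen with earlier results of these data known, so the lists are descriptions. The rule took Elk1, Elk3, Elk4 and Srf, the 12 largest called changes each way (filled up to 5 by smallest p), up to 5 or 2 members of smallest p of each list, the 8 genes of smallest p in the response difference, the 12 most induced genes, called genes near Elk4 and those called on both Elk backgrounds; clone-like symbols were not named, and other probe sets were given where they disagreed in sign or by over 1 log2 unit. Some candidates of the rule were summarised in ranges.

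Mouse numbers did not pair SapKO with WT animals: after removal of group means, same-numbered stimulated arrays correlated at 0.178, −0.277 and 0.0901 over 8361 genes. Untreated and stimulated arrays of 1 mouse correlated at 0.264 to 0.719, and mouse was a block in an alternative for the response difference. The labels give no labelling batch; the dap split was inferred from signal. Alternatives covered the arrays fitted, blocks, centring, array weights, filters and probe sets; the test of unequal Sap differences between the Elk backgrounds, leaving out arrays other than those of the 6, the mouse block and the second Egr2 and Egr3 probe sets were chosen after seeing the data.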

Additional observations from a re-analysis of the deposited data

Results flagged for a closer look

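Among the 13 genes, 3 had unequal Sap differences on the 2 Elk backgrounds in a test of the difference itself. That difference (stimulated SapKO minus WT, less stimulated ElkSapKO minus ElkKO) was 1.40 for Nmnat1 (adjusted p = 0.0245), 2.46 for Rbp7 (0.00836) and 2.85 for Gcsh (0.0161). Nmnat1 had 8.66, 8.58 and 8.64 log2 in ElkSapKO, against 6.18, 5.84 and 6.28 in ElkKO, while SapKO had 10.33 to 10.71. Rbp7 had 5.86, 6.04 and 5.53 in ElkSapKO, against 5.08, 4.60 and 4.71 in ElkKO, while SapKO had 7.72 to 8.36. The test was added after seeing the data, and the arrays of ElkKO and ElkSapKO were all on the high dap side. The count of such genes was 0 without SapKO mouse 1, SapKO mouse 3 or ElkKO mouse 1.

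The second Egr3 probe set had a smaller response to anti-CD3 in SapKO than in WT, with a response difference of −2.55 that passed among all probe sets, where no gene passed in the gene-level test. Of the 34 probe sets called in stimulated SapKO minus WT, 13 carry several gene symbols or none and stand outside the gene test; 11 of these were higher and 2 lower in SapKO. Probe sets of 4 genes that were not called in the gene test also passed: Egr2 and Egr3, which other gene-level settings called too, Mapkap1 (−2.71) and Cep44 (−1.84), the last pair chosen after their values were seen.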

How the results depend on the processing

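Under 233 alternatives for the 13 called genes, 200 kept direction and call, 33 lost the call and 0 reversed. Elk4 stayed called in each, at −3.25 to −1.10, and the median of the induced genes stayed between −0.18 and −0.08. The 13 calls became 8 to 11 without any 1 of the 6 arrays, 47 with array weights, 34 over all probe sets and 27 when the untreated array of ElkSapKO mouse 2 was dropped; other settings gave 11 to 19. Untreated SapKO against WT, with 15 calls, gave 35 with only its own arrays, 42 with array weights, 40 over all probe sets and 8 to 11 without 1 array. The response difference, with 0 calls, gave 2 with only its own arrays and 1 each without that ElkSapKO array, with array weights, with probe sets averaged and over all probe sets. ElkSapKO against ElkKO, with 8 calls, gave 25 without that ElkSapKO array, 2049 with array weights, 16 over all probe sets and 5 to 127 without 1 array. The unequal Sap differences, with 3 calls, gave 67 with array weights, 5 over all probe sets and 0 to 3 without 1 array. The cause of these moves was not tested. With mouse number as a replicate block there were 15 calls in stimulated SapKO against WT and 14 in ElkSapKO against ElkKO; since the numbers do not pair animals, this is given only as a count. Signs turned for 5 genes with small differences. Leaving out 1 array gave −0.047 to 0.094 for Elk3, −0.047 to 0.287 for Nfkbiz, −0.478 to 0.052 for Hba-a1, −0.082 to 0.320 for Kdm5d and −0.170 to 0.032 for Cd69; array weights gave −0.044 for Nfkbiz, and averaged probe sets −0.16 for Elk3 and −0.092 for Nfkbiz. Differences in genes near background, such as Ccl3, are limited by signal over background.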

Other observations

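A further 2 genes, both chosen after their values were seen, differed by over 1 log2 unit without being called. Slc15a2, a peptide transporter, had 11.004, 9.80 and 9.85 log2 in stimulated SapKO, against 3.33, 11.02 and 9.30 in stimulated WT, so that 1 WT mouse alone was low and the difference of 2.33 had a standard error of 1.91. Glipr1 had 9.59, 9.51 and 9.25 in SapKO, against 10.75, 10.996 and 10.18 in WT; its difference of −1.19 (adjusted p = 0.0660) was −1.18 in untreated cells and −0.89 in ElkSapKO against ElkKO.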
